A study of Mus musculus with 6 samples.

Results

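The probes described here are the ASMM10UP probes of a mouse lncRNA array, a set of 923 probes numbered from 1 to 923 whose names start with these letters. The 240 members described below were selected on a detection flag of the scanner software, which had to call the probe well above background for 3 or more of the 6 arrays. The flag was counted over both stages together, so detection and mean level are given as descriptions with no test. The array holds 60915 probes outside the controls, of which 32336 met the same detection rule. The letters of the name are not explained in the sources used here. The files pair these probes with no gene, and their targets, sequences and genome positions were not used here.

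The RNA came from livers of C57/BL6 mice labelled male, with no treatment. One group was fetal liver at embryonic day 18 and the other was adult liver at 2 months of age, with 3 arrays each. The design text calls the replicates independent experiments but does not say how many livers went into each. The p-values measure the spread between these samples.

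Before birth the liver is a site of blood formation as well as a developing metabolic organ, and blood cell precursors make up much of the tissue. After birth blood formation moves to the bone marrow, and hepatocytes take on the enzymes and secreted proteins of the mature organ. Long non-coding RNAs, or lncRNAs, are transcripts that are not translated into protein, and many are made in particular tissues or at particular stages. A lncRNA array reads them, together with coding transcripts, through short probes that bind labelled copies of the RNA. In whole tissue, fewer cells of a type and less RNA per cell cannot be told apart.

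Of 30 marker genes of liver and blood cell types, 1 had a named probe. This was Tfrc, the transferrin receptor that erythroid precursors use to take up iron. Its level lay between 7.95 and 8.21 on the fetal arrays and between 4.26 and 4.73 on the adult arrays. No defining hepatocyte gene had a named probe, so the tissue label could not be checked against one.

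Levels are log2 of the background-subtracted signal over the 75th percentile of signal on the same array, so a level of 0 is that percentile and each step of 1 is a doubling. Levels listed for a stage are in the order of its arrays 1, 2 and 3. That percentile was 70.3 to 115.7 on the adult arrays and 74.3 to 153.8 on the fetal arrays. Between 45.0% and 60.6% of all probes were well above background on an array. Fetal array 1 stood apart. Across the 240 members it correlated with fetal arrays 2 and 3 at r of 0.85 and 0.87, while those 2 arrays correlated at 0.97 and the adult pairs at 0.92 to 0.96. These values run across probes, which are not independent replicates. By the scan times in the file headers, adult arrays 1 and 2 and fetal arrays 2 and 3 were scanned together (scan 1), as were adult array 3 and fetal array 1 (scan 2).

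ASMM10UP probes were mostly dim. Of the 923, 557 (60.3%) were well above background on no array, against 32.1% of the 58141 ASMM10P probes, which make up most of the array. Detection on 3 or more arrays was reached by 26.0% of ASMM10UP and 54.4% of ASMM10P probes. Detection on all 6 was reached by 16.3% and 38.6%. The rule thus left 683 ASMM10UP probes out, and nothing is said here of the RNAs they target.

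More ASMM10UP probes were detected in fetal than in adult liver. Adult arrays 1, 2 and 3 detected 215, 186 and 231 of the 923, and fetal arrays 1, 2 and 3 detected 226, 309 and 243. The stages overlapped, since fetal array 1 detected fewer than adult array 3, and fetal array 2, which detected the most probes of any kind, stood highest. Of the ASMM10UP probes detected on unequal numbers of fetal and adult arrays, 144 were seen on more fetal arrays and 51 on more adult arrays, so that 73.8% leaned to the fetal side. For ASMM10P the share was 66.0%. ASMM10P probes leaned the same way, and the numbers detected differed between arrays of 1 stage.

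The detection threshold fell within a continuous range of levels. The 43 members detected on exactly 3 arrays had mean levels of -3.66 to 1.57, with a median of -2.72. The 38 probes just outside, detected on 2 arrays, had mean levels of -4.22 to -2.34, with a median of -3.24. Of the 43, 34 were seen on more fetal than adult arrays and 9 on more adult arrays. Another 18 members were detected on 4 arrays and 29 on 5. The remaining 150 were detected on all 6, with a median of 0.30 and a highest mean level of 7.72.

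The members spanned a wide range within each array. Their median adult levels were -1.28, -0.93 and -1.13, and their median fetal levels -0.66, -0.91 and -0.64. Every fetal median lay above every adult median, though fetal array 2 lay only just above adult array 2. The choice of members by detection enters these medians, since 19 members were detected on the fetal arrays only and 3 on the adult arrays only. Medians over the members detected on all arrays are not given here. ASMM10P probes that met the same rule and are listed in the table deposited by the authors, 16633 in number, were brighter. The median of the members lay below theirs by 0.72, 0.49 and 0.66 on the adult arrays and by 0.26, 0.45 and 0.26 on the fetal arrays. All 240 members are also listed in that table, and no other ASMM10UP probe is.

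Replicates agreed less well for the members than for the listed ASMM10P probes. The median SD of a member was 0.60 over the fetal arrays and 0.45 over the adult arrays, against 0.47 and 0.32 for the listed ASMM10P probes. The listed ASMM10P probes and the members were put together into 10 bins of mean level. In 9 of these bins the median fetal SD of the members was above that of ASMM10P, and in 9 the median adult SD was. In the bin of levels from 2.25 to 4.30, which held 21 members, the median fetal SD was 1.03 against 0.50. Over fetal arrays 2 and 3 alone the median SD of the members was 0.29, against 0.22.

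Of the 240 members, 50 (20.8%) changed between the stages, against 26.0% of all tested probes. Fetal liver had 35 of them higher and 15 lower, which is 14.6% and 6.25% of the members. Of all tested probes 11.3% were higher and 14.8% were lower. A probe was called at a limma adjusted p under 0.05, with Benjamini-Hochberg adjustment over the 32336 tested probes, and a change of at least 2-fold. All 50 called members had stages that did not overlap, as did 47.5% of all tested probes, called or not. No such share among all called probes is given here, so this is no support for the calls. Without fetal array 1 limma called 70 members, 51 higher and 19 lower, and all 50 were among them. This is 29.2% of the members, where 31.0% of all tested probes were called. Without adult array 2 it called 30 members (21 higher, 9 lower), or 12.5% against 16.4% of all tested probes. Without adult array 3 it also called 30 (21 and 9), against 16.7%. Without adult array 1 it called 34, with 22 higher, or 14.2% against 17.6%. The members' counts thus moved with those of the whole array.

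The changes were large where they were called. The median change was 2.30 on the log2 scale among the 35 higher members and -2.21 among the 15 lower ones. Of the 240 members, 24 were called at 4-fold or more on the fetal side, where 6.66% of all tested probes were. On the adult side there were 9 such members (3.75%), against 7.11% of all tested probes. These sizes include limma estimates for probes below background in 1 stage. Of the 35 higher members, 19 were well above background on all 6 arrays, 14 only on the fetal arrays and 2 on some arrays of the other stage. Of the 15 lower members, the numbers were 9, 3 and 3. The members seen in 1 stage only had to differ to be chosen, and their calls are no support for the counts.

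Among the members measured on all 6 arrays, ASMM10UP599 rose most in fetal liver. Its fetal levels were 5.75, 5.69 and 6.17, and its adult levels 0.39, 1.31 and 1.50. The lowest fetal array stood more than 4 steps above the highest adult array. The fetal mean was 5.87 ± 0.26 and the adult mean 1.07 ± 0.59 (SD, n = 3 each), a 28.0-fold difference. The log2 fold change, fetal minus adult, was 4.81 (SE 0.36, limma adjusted p = 2.6e-04). It was 5.08 on scan 1 and 4.25 on scan 2, and it was called in each of the 6 fits that left out 1 array.

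ASMM10UP703 ranked 2 of 19 on the fetal side, and fetal array 1 stood far above the other fetal arrays. Its fetal levels were 8.22, 5.05 and 5.14, and its adult levels 0.92, 1.62 and 2.997. The stages did not overlap on any array. The log2 fold change was 4.29 (95% interval 2.01 to 6.58, limma adjusted p = 0.0180). Without fetal array 1 it was 3.25 and still called. The call was lost without adult array 1 (log2 fold change 3.83) and without adult array 2 (4.18), where the limma adjusted p reached 0.067.

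ASMM10UP787 fell most in fetal liver among the members measured on all 6 arrays. Its fetal levels were -0.88, -1.32 and -0.29, and its adult levels 3.79, 4.22 and 4.04. All adult arrays were more than 4 steps above every fetal array. The fetal mean was -0.83 ± 0.52 and the adult mean 4.02 ± 0.21 (SD, n = 3 each), a 28.8-fold difference. The log2 fold change was -4.85 (SE 0.33, limma adjusted p = 1.8e-04), with -4.81 on scan 1 and -4.92 on scan 2. It was called in all 6 fits that left out 1 array.

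ASMM10UP567 ranked 2 of 9 on the adult side, with a smaller and less even change. Its fetal levels were 1.78, 0.77 and 1.90, and its adult levels 2.82, 4.46 and 3.86. Adult array 1 lay less than 1 step above fetal array 3, and the stages did not overlap. The log2 fold change was -2.23 (95% interval -3.45 to -1.01, limma adjusted p = 0.0198). The call was lost without adult array 2 (-1.86) and without adult array 3 (-2.15), and on scan 1 alone (-2.30).

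The next members on the fetal side were spread over a wide range of sizes. The member ranked 3 had fetal levels of 2.15, 3.32 and 3.80 and adult levels of -0.46, -0.93 and -0.94, a 14.6-fold difference (limma adjusted p = 0.0014). Here fetal array 1 was the lowest fetal array, and the call held in all 6 fits that left out 1 array. The member ranked 4 had fetal levels of 5.78, 3.36 and 3.33 and adult levels of -0.44, 0.64 and 1.59, again with fetal array 1 far above the others. Its 11.8-fold difference (limma adjusted p = 0.0188) was lost without adult array 1 or adult array 2. Ranks 5 to 10 ran from 6.28-fold down to 4.50-fold. Of these 6 members, those ranked 6, 9 and 10 were called in every fit that left out 1 array.

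The member ranked 6 showed how even some of these changes were. Its fetal levels were 2.69, 3.30 and 3.17, and its adult levels 0.64, 0.39 and 0.33. The difference was 6.06-fold, with an SE of 0.27 on the log2 scale (limma adjusted p = 9.0e-04). The member ranked 7 was less even, at 2.74, 0.56 and 0.28 on the fetal arrays and -1.60, -1.15 and -0.88 on the adult arrays. Its call (5.30-fold, limma adjusted p = 0.0365) was lost whichever adult array was left out. The weakest of the 19, at 2.01-fold, lay close to the fold threshold.

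On the adult side 7 further called members were measured on all 6 arrays. The member ranked 3 had fetal levels of -1.49, -1.90 and -1.85 and adult levels of 0.73, 0.32 and 0.35, which is 4.64-fold lower in fetal liver (limma adjusted p = 0.0015). The member ranked 4 had 0.01, -0.21 and -0.44 on the fetal arrays and 1.58, 1.96 and 2.17 on the adult arrays, or 4.34-fold lower (limma adjusted p = 0.0021). Replicates of these 2 members lay close together, and both were called in all 6 fits that left out 1 array. The member ranked 9 had the highest mean level of these 9. Its fetal levels were 3.65, 3.62 and 3.73 and its adult levels 4.91, 4.80 and 4.47, a difference of 2.09-fold (limma adjusted p = 0.0192). Its call was lost in 4 of the 6 fits that left out 1 array.

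The widest separations came from members seen in 1 stage only, for which the fold is a lower bound. The bound sets the bright stage's mean against the mean of, per dim array, the lowest signal well above background or the probe's own signal, whichever was higher. Fetal-only detection, on all 3 fetal arrays and no adult array, was found for 19 members, and adult-only detection for 3. These members met the detection rule only through the stage where they are high, so a difference was built into their choice, and their values are a description with no test. Limma called 14 of the 19 and 3 of the 3, as it did 1053 of 1335 such fetal-only and 496 of 504 such adult-only probes among all tested. Fetal array 2 detected the most probes and adult array 2 the fewest.

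The strongest adult-only member was bright in adult liver, with adult levels of 5.80, 5.96 and 7.02. In fetal liver, where it was not well above background, the measured levels were -2.55, -3.71 and -3.08. It was at least 582-fold higher in adult liver, the largest bound among the 22 members seen in 1 stage. The other adult-only members had bounds of at least 5.38-fold and at least 2.36-fold. Their adult levels lay between -1.79 and -0.43.

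The strongest fetal-only member had fetal levels of 5.46, 4.68 and 3.57. Its measured adult levels were -3.60, -4.51 and -3.73, not well above background, with the software's floor reached on 1 of them. The fetal mean was at least 136-fold higher. The fetal-only member ranked 2 stood at 2.50, 0.73 and 0.90 on the fetal arrays with a bound of at least 14.9-fold. Those ranked 3 to 5 had bounds of at least 7.04-fold, 3.94-fold and 3.72-fold. Among the 14 called fetal-only members, 11 had a bound of 2-fold or more. In the other 3 the bound did not reach 2-fold.

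The brightest 10 members had mean levels of 4.81 and above. None of the 10 members with the highest mean level was called. In the brightest bin of level 18.6% of the listed ASMM10P probes were called. Of the 10, 9 had a positive difference, where 53.5% of the listed ASMM10P probes in that bin did. The stages did not overlap in 3 of the 10. Among probes of any level they did not overlap in 45.6% of the listed ASMM10P probes and 47.5% of all tested probes. The brightest of all had fetal levels of 9.77, 7.20 and 7.94 and adult levels of 6.13, 7.49 and 7.79. Its stages overlapped, with fetal array 1 highest and adult array 1 lowest, and the log2 fold change was 1.17 (95% interval -0.61 to 2.94). The member ranked 2 in brightness had 9.21, 6.70 and 6.91 on the fetal arrays and 4.61, 5.95 and 6.10 on the adult arrays. Its stages did not overlap, and the log2 fold change of 2.05 missed the threshold (interval 0.25 to 3.85, limma adjusted p = 0.088). The member ranked 3 was the steadiest, at 5.84, 6.05 and 6.11 on the fetal arrays and 5.87, 6.24 and 5.84 on the adult arrays. Its log2 fold change was 0.02, with an interval from -0.58 to 0.61.

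Fetal array 1 departed upwards for a group of members. In 25 members (10.4%) it lay at least 2 steps above both other fetal arrays, and in 7 (2.92%) at least 2 steps below both. Among listed ASMM10P probes the shares were 5.43% and 3.25%. Of the 25, 16 (64.0%) had adult array 3, from the same scan, as the highest adult array, against 36.7% of all members. Among the 901 listed ASMM10P probes with the same upward departure it was 62.4%. Adult array 1 was the lowest adult array in 24 of the 25 and in 714 of the 901. Of the 25, 5 were called, as were 436 of 1823 such probes among all tested. Without fetal array 1 limma called 9 of the 25, and 819 of the 1823. The part of the scan in these values was not tested.

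Most members were not called, and few of these were shown to be steady. Of the 190, 48 differed by at least 2-fold between the stage means, 40 of them higher in fetal liver and 8 higher in adult liver. This split was not counted over all tested probes, so it is not read as a trait of the members. In 39 of the 48 the fetal SD was above the adult SD, as it was in 64.2% of all members and 66.7% of the listed ASMM10P probes. The 95% interval lay within 2-fold either way for only 24 of the 190, and its median width was 2.07 on the log2 scale. For most uncalled members a change of 2-fold or more is therefore within the interval.

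The direction of change leaned to the fetal side. Of the called members 70.0% were higher in fetal liver, while of the 4098 called listed ASMM10P probes 48.0% were (1966 higher, 2132 lower). The called members include 14 fetal-only and 3 adult-only ones, which had to differ to be chosen. In the fit of probes well above background on all 6 arrays, 67.9% of the called members were higher in fetal liver. There, 44.8% of the called listed ASMM10P probes were. Among all tested ASMM10P probes, listed or not, 43.1% of the 8280 called under the main rule were higher in fetal liver. Counting every member whatever its p, 150 of 240 (62.5%) had a positive log2 fold change, against 51.5% of the listed ASMM10P probes and 47.5% of all tested probes. The median log2 fold change was 0.27 for the members, 0.03 for the listed ASMM10P probes and -0.06 for all tested probes. With the 22 one-stage members set at their bound, the median was 0.21. Probes are not replicates, so these shares are descriptions of the 6 arrays and carry no test.

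Setting the members beside ASMM10P probes of like level left this lean about as large. When the 10 bins of mean level were weighted as the called members fall among them, 48.1% of the called listed ASMM10P probes were higher in fetal liver, close to the 48.0% without weighting. The share of called members higher in fetal liver was above that of ASMM10P in 8 of the 9 bins that held a called member, and below it in 1. Each bin held at most 9 called members, so single bins are thinly filled. Across the lower 3 bins 14 of 18 called members were higher in fetal liver, where ASMM10P had 51.4%. Most of these 14 were detected on the fetal arrays only. They had to differ to be chosen and are no support for the lean. Across the middle 4 bins 12 of 18 called members were higher in fetal liver, with 47.2% for ASMM10P. In the upper 3 bins it was 9 of 14, with 45.1%. The brightest bin held 11 members and no called one.

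A smaller share of members than of ASMM10P probes of like level was called. As fitted here, 20.8% of the members were called, against 24.6% of the listed ASMM10P probes, or 25.7% with the bins weighted as the members fall among them. Against all tested probes, not matched for level, the share was not smaller under every setting. With array weights 37.1% of the members and 36.1% of all tested probes were called. With no filter on dim probes 18.8% of the 240 members were called, against 13.0% of 60786 probes. Those probes include the dim ones that the members' rule left out, so these shares are of unlike sets. The gap was on the adult side. Called lower in fetal liver were 6.25% of the members and 12.8% of the listed ASMM10P probes, and called higher were 14.6% and 11.8%. On the 150 members well above background on all 6 arrays, 19 were called higher and 9 lower, which is 12.7% and 6.00%. Of all 22848 probes detected on all 6 arrays, 8.70% were called higher and 13.7% lower.

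Non-overlap of the stages, which uses the same values but not the fit, split the same way. In 58 members (24.2%) every fetal array lay above every adult array, and in 33 (13.8%) every fetal array lay below. Among all tested probes these shares were 20.5% and 27.0%. Among listed ASMM10P probes they were 22.0% and 23.5%. The fetal-only and adult-only members met the detection rule only through the stage where they are high, which enters the members' shares. For the 150 members well above background on all 6 arrays, every fetal array lay above in 24.0% and below in 15.3%. Of all 22848 probes detected on all 6 arrays, these shares were 19.0% and 27.2%.

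Most changes called on scan 1 were also seen on scan 2. On the arrays of scan 1 alone, with 2 arrays per stage, limma called 57 members, 42 higher and 15 lower. This is 23.75% of the members, where 27.1% of all tested probes were called. Of these 57, 44 (77.2%) were 2-fold or more apart on scan 2, with 1 array per stage and no test, in the same direction. In 1 (1.75%) the direction was opposite. For all tested probes the shares were 82.8% and 1.91%. With the scan as a block limma called 60 of the 240 members, 42 higher and 18 lower, against 31.3% of all tested probes, and the 50 were among them.

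Members with consecutive numbers showed little likeness in level or change. Of the 79 such pairs, both members were called in 5, and in 4 of these they changed in the same direction. Called pairs were not counted over all pairs of members, so these 5 are not read as a likeness of neighbours. Across the 79 pairs the mean levels correlated at r of 0.02 and the log2 fold changes at 0.04, as a description over probes read on the same arrays. The signs were equal in 58.2% of these pairs, against 52.9% of all pairs of members.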

How the data were processed

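Per the labels' protocols, ribosomal RNA was removed from the liver RNA, and randomly primed copies labelled with Cy3 were put on a one-colour array. The scanner software was Agilent Feature Extraction 11.0.1.1, per the submitters' processing notes, and its grid names build mm9, per the file headers. The deposited intensity values per spot are background-subtracted, with low values raised to a floor by the software, and are not scaled between arrays. The other deposited columns are flags of 0 or 1 per spot. The table deposited by the authors holds log2 values of 17307 probes. Its columns correlated with their own arrays at r of at least 0.999 and lay near quantile-normalized log2 signals, which settles its log2 scale and direction and shows no centring of probes (column medians 5.94 to 6.11). How the authors scaled it is not stated in these sources.

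Controls, negative controls and outlier spots were left out. No spot of these probes was saturated. Log2 processed signals minus each array's 75th percentile were fitted on the 32336 probes well above background on at least 3 arrays, with limma 3.58.1 in R 4.3.3 (two-sided). The number of arrays limits the precision.

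The 10 bins of level hold equal numbers of members and listed ASMM10P probes together. Only the 2 strongest members in each direction, called, detected on all 6 arrays and not overlapping, are given by ID, since no gene is paired with them. The members and lists were chosen with earlier results of these data known. Alternatives covered scaling, background correction, filters, blocks, array weights, single arrays left out, the filter of the design text and the authors' table. Normexp used the median spot signal in place of the planned mean signal, which is not a column of the files used here.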

Additional observations from a re-analysis of the deposited data

How the results depend on the processing

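The lean of the called members to the fetal side held under all 19 alternatives, at 60.9% to 77.5% of called members higher against 44.1% to 54.1% of called listed ASMM10P probes. The gap of 22.0 percentage points ranged from 13.1 (normexp) to 24.6 (without fetal array 2). It was 26.9 when all tested ASMM10P probes took the place of the listed ones. Also, members had a positive sign more often than listed ASMM10P probes in all 19 (56.3% to 64.2% of members). No fit turned the sign of any of the 50 called members that it held. The counts moved more. With normexp limma called 23 members (14 higher, 9 lower), or 9.58% against 14.0% of all probes. On probes detected on all 6 arrays it called 28 (19 and 9), or 18.7% against 22.8%. With array weights, whose estimation stopped before its tolerance and gave fetal array 3 a weight of 30.1, it called 89 (69 and 20), or 37.1% against 36.1%. With the replicate block it called 27 (18 and 9), or 11.3% against 13.9%. Deviations of same-numbered arrays from their stage means correlated at -0.53, -0.35 and -0.31. Those of arrays with different numbers correlated at -0.49 to 0.65. With 3 arrays per stage, these values cannot show whether the replicate numbers pair the samples. The filter of the design text passed 51 members, or 21.25% against 26.9% of all probes. After Benjamini-Hochberg it passed 27 (18 and 9), or 11.25% against 17.6%. Leaving out 1 array gave 30 to 70 called, 21 to 51 higher and 9 to 19 lower. Of the 50 calls, 22 held whichever array was left out (15 higher, 7 lower), and 14 held in every fit that included the probe (7 and 7). These 14 show no lean to the fetal side. No such counts over all tested probes are given here to set beside them. ASMM10UP599 ranged from 4.44 to 5.08 and ASMM10UP787 from -5.12 to -3.77 over the other fits, always called. ASMM10UP703 and ASMM10UP567 lost their calls with the replicate block and with the design filter after adjustment. Dim signal limits the 22 members seen in 1 stage to bounds.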
